A study of Danio rerio with 6 samples.

Results

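Long non-coding RNAs (lncRNAs) assembled at genes of the extracellular matrix were examined in ZF4, a fibroblast-like cell line from zebrafish embryos. The members were all transcripts of the deposited table whose listed nearest gene has a name starting like a collagen, laminin, fibronectin, proteoglycan, matrix protease or another matrix family. The name pattern took 42 of the 8363 assembled lncRNAs, at 33 gene names. The remaining 3162 lncRNAs with a named gene, at 2224 names, served for comparison. Control cells were cultured at 28°C, and cold acclimated cells stayed in the same medium at 18°C for 30 days, with 3 cultures in each group. All 6 cultures came from this 1 line, and the labels give no other treatment. The expression values are FPKM, fragments per kilobase of transcript and per 1000000 mapped fragments, given by the authors as 1 mean per group. No spread between cultures could be computed, so the differences below have no replicate check and no test. The depth of the libraries is unknown from the table.

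The extracellular matrix is the network of secreted proteins and sugars that fibroblasts lay down around themselves. Fibrillar collagens form its cables, laminins and network collagens form basement membranes, and proteoglycans fill the spaces and bind growth factors. Proteases of the ADAM and ADAMTS families cut matrix and cell surface proteins, and integrins anchor cells to the network. A lncRNA listed at such a gene lies near it or within it, and its level need not follow that of the mRNA. The mRNAs themselves, and so the fibroblast markers of this line, were not analysed here. Of 11 fibroblast marker genes, only col1a1b and col5a1 had a lncRNA listed.

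Most lncRNAs at matrix genes had a lower mean in cold acclimated cells, and a smaller group had a higher mean. The ratio of the cold acclimated to the control mean was taken on the log2 scale after 0.1 FPKM had been added to both means, which understates the change of low values. On this scale 31 of the 42 members (73.8%) were lower and 11 were higher, where 68.0% of all lncRNAs that exceeded 0.5 FPKM in either group and 67.2% of the others with a named gene were lower. More than 2-fold lower were 19 members (45.2%), against 39.4% of those 8108 lncRNAs and 37.0% of the other lncRNAs with a named gene. More than 2-fold higher were 9 members (21.4%), against 13.3% and 13.9%. The median log2 ratio was -0.96 for the members and -0.58 for the other lncRNAs with a named gene. The median over all 8108 lncRNAs was itself -0.63. Relative to it, the members stood at a median of -0.32, with 10 more than 2-fold higher (23.8%) and 9 more than 2-fold lower (21.4%), against 23.5% and 23.9% of all lncRNAs on this scale. In bulk RNA of this 1 line, fewer cells with a given lncRNA and less of it per cell cannot be told apart.

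**Figure D1:**
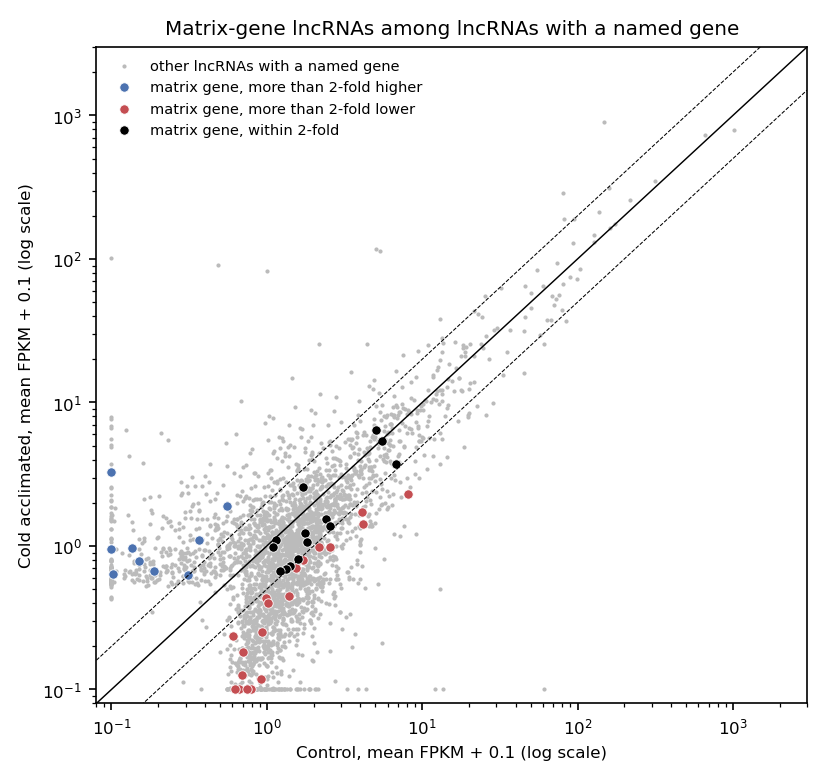
Mean FPKM plus 0.1 in control cells (x axis) and cold acclimated cells (y axis), both on log scales, for the 42 lncRNAs at matrix genes (large points) and the other lncRNAs with a named gene (grey). The solid line marks equal means and the dashed lines a 2-fold difference, and the 9 blue members all lay at control means below 0.5 FPKM while the 19 red members spread from 0.504 to 8.02 FPKM.

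All 42 members exceeded 0.5 FPKM in either group, which is also near the limit of the authors' own filter. A member above 0.5 FPKM in 1 group only has the sign of its ratio fixed by that. In control cells only there were 12 such members, all more than 2-fold lower, as were 91.2% of 955 others with a named gene. In cold acclimated cells only there were 9, all more than 2-fold higher, as were 81.3% of 342 others. Above 0.5 FPKM in both groups were 21 members, and 19 of these were lower in cold acclimated cells, 7 of them more than 2-fold (33.3% of the 21). Their median log2 ratio was -0.89. Among the 1763 other lncRNAs with a named gene that were above 0.5 FPKM in both groups, 1101 were lower (62.5%), 260 of them more than 2-fold (14.7% of the 1763), with a median of -0.24. None of the 9 members with a higher mean by more than 2-fold was above 0.5 FPKM in control cells, and of the 1763 others 148 (8.39%) were higher by more than 2-fold.

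The members were of modest abundance. Their median was 1.02 FPKM at 28°C and 0.704 FPKM at 18°C, beside 1.16 and 0.803 FPKM for the other lncRNAs with a named gene. None exceeded a mean of 10 FPKM over both groups, as 3.86% of the others did. The members had a median length of 490.5 nt, between 200 and 5517 nt, and 27 of 42 had a single exon (64.3%, against 60.0% of the others). They lay on 20 of the 25 chromosomes, with 5 at most on a chromosome, and their positions are given below on GRCz10. FPKM times the length in kilobases gives the approximate number of fragments per 1000000 mapped fragments (FPM). Summed over the members it was 102.7 FPM at 28°C and 53.5 FPM at 18°C, which is 52.0% of the control sum. For the other lncRNAs with a named gene the cold sum was 93.9% of the control sum, and 83.5% without the 10 highest of either group. The sum of the members rests on few transcripts, since the 4 highest, at col6a3, gpc4 and col5a1, held 62.2% of it in control cells. Without these 4, the sum went from 38.8 to 28.0 FPM (72.1%).

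**Figure D2:**
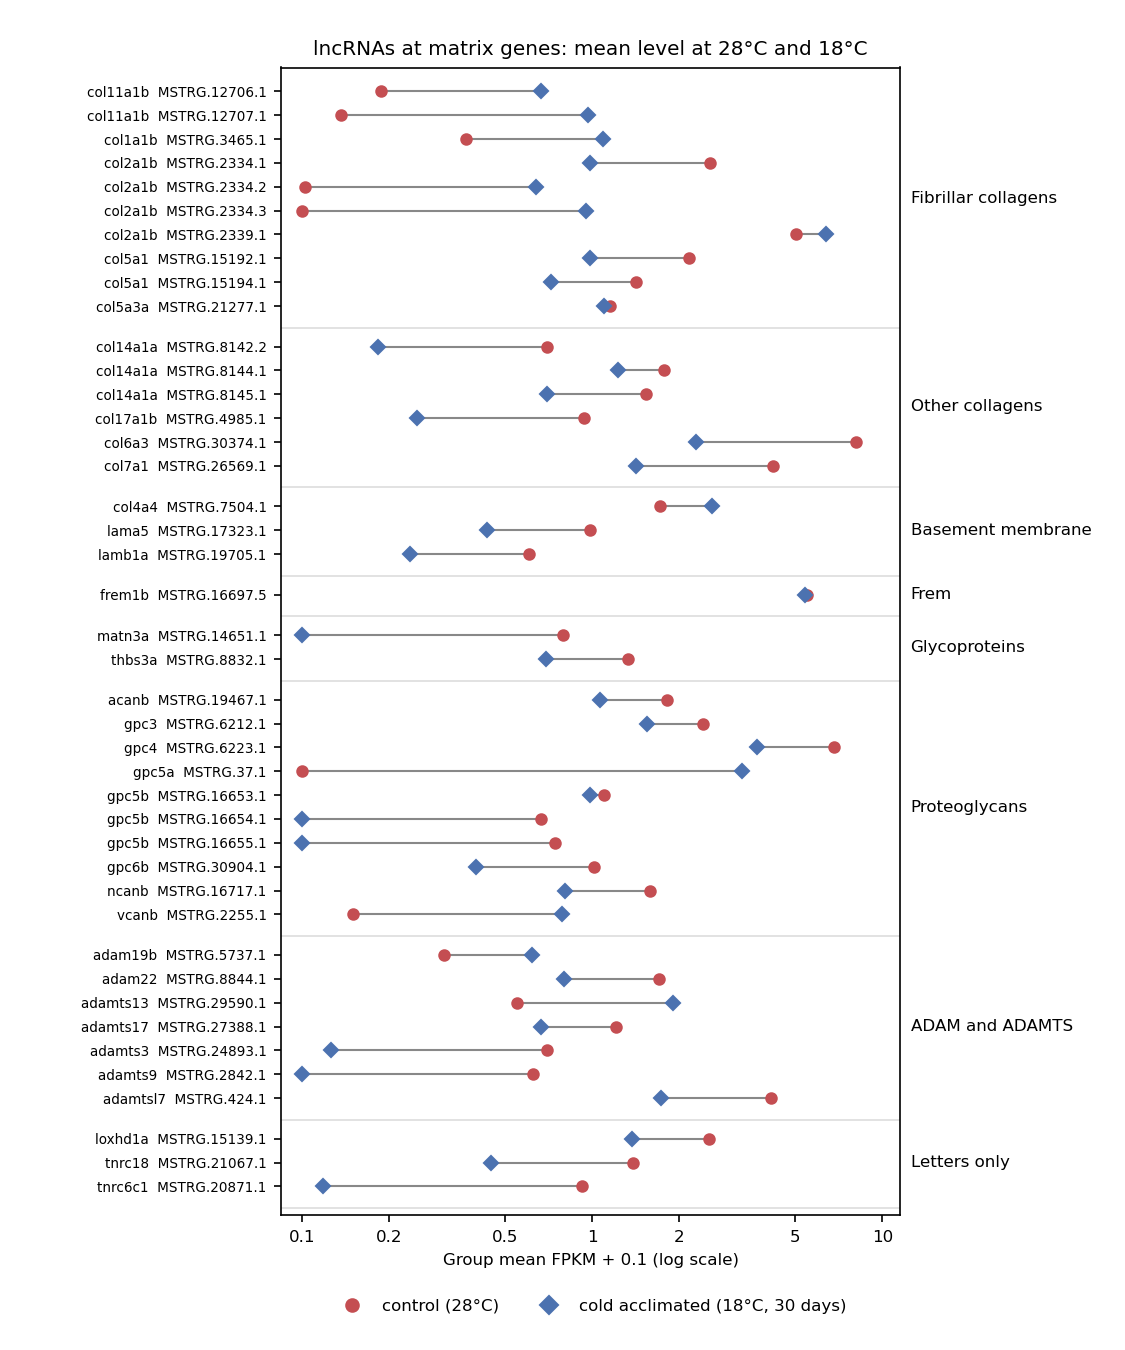
Group mean FPKM plus 0.1 on a log scale (x axis) for each of the 42 lncRNAs (rows), in control cells (red circles) and cold acclimated cells (blue diamonds), grouped by the role of the named gene. The diamond lies left of the circle in 31 rows, including the 6 rows of the other collagens, which leave out col4a4 of the basement membrane.

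Among fibrillar collagen genes, whose products assemble into the load-bearing fibrils, 10 lncRNAs at 5 genes were listed. Here 5 were higher by more than 2-fold after cold acclimation (50.0%, against 13.3% of all lncRNAs). By as much, 2 were lower (20.0% against 39.4%), and the median log2 ratio was 0.96. The 5 higher ones passed 0.5 FPKM in cold acclimated cells only, which fixes the sign of their ratios. Of the 5 above 0.5 FPKM in both groups, 4 were lower, with a median of -0.97. These 4 include MSTRG.2334.1 at col2a1b, which overlaps other transcripts and is uncertain on its own. Its locus summed had a log2 ratio of -0.11. The pair of lncRNAs at col11a1b, a chain of the thin fibrils of cartilage, lay 7.20 kb apart on chromosome 2. MSTRG.12707.1, with 3 exons (15803557 to 15812178), had 0.0362 FPKM at 28°C and 0.867 FPKM at 18°C. MSTRG.12706.1, with 1 exon (15795984 to 15796356), had 0.0872 and 0.567 FPKM. Both were low at 28°C, at percentiles 3.83 and 5.28 of the control means of the other lncRNAs with a named gene, and their log2 ratios were 2.83 and 1.83. At col1a1b, an alpha 1 chain gene of type I collagen, MSTRG.3465.1 (chromosome 12, 3065981 to 3066381) had 0.269 and 0.995 FPKM, a log2 ratio of 1.57.

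At col2a1b, a type II collagen gene on chromosome 11, 4 lncRNAs were listed, and 3 of them overlapped at a single locus. MSTRG.2334.1 (52716 to 79817) had 2.45 FPKM at 28°C and 0.881 FPKM at 18°C. MSTRG.2334.2 (69452 to 79796) had 0.00244 and 0.539 FPKM. MSTRG.2334.3 (71179 to 79796) was listed at 0 at 28°C and at 0.855 FPKM at 18°C. The longest span was lower and the shorter spans were higher, and the 3 together had 2.46 FPKM at 28°C and 2.28 FPKM at 18°C, a log2 ratio of -0.11. The quantification splits the reads of overlapping transcripts between them, which leaves the value of each uncertain, and whether the division differed between the groups was not tested. The remaining lncRNA at this gene, MSTRG.2339.1 (105851 to 106441), lay apart from them and had the highest mean of all members in cold acclimated cells, 6.30 FPKM, against 4.95 FPKM at 28°C. With the overlapping transcripts summed, 3 of 8 fibrillar collagen loci were more than 2-fold higher, 1 was more than 2-fold lower, and the median log2 ratio was 0.14. Of all lncRNA loci summed in this way, 12.6% were more than 2-fold higher and 39.6% more than 2-fold lower.

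The lncRNAs at genes of type V collagen, which sets the diameter of type I fibrils, had lower or level means. At col5a1 on chromosome 21, 2 long single-exon lncRNAs lay 131 kb apart. MSTRG.15192.1, of 5454 nt (6637512 to 6642965), had 2.06 and 0.883 FPKM, a log2 ratio of -1.14. MSTRG.15194.1, of 5517 nt (6773562 to 6779078), had 1.31 and 0.622 FPKM, a log2 ratio of -0.97. They were the longest members. At col5a3a, MSTRG.21277.1 had 1.05 FPKM at 28°C and 1.00 FPKM at 18°C.

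**Figure D3:**
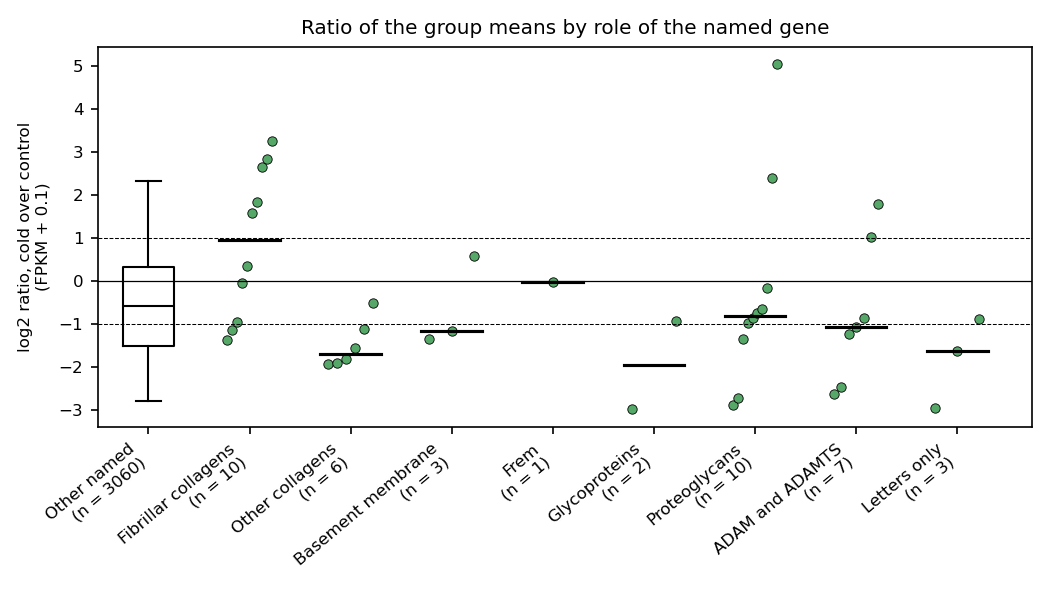
log2 ratio of cold acclimated over control means, with 0.1 FPKM added (y axis), for each member (points) by the role of its gene, with the median of each group as a bar, beside a box plot of the 3060 other lncRNAs with a named gene (quartiles, with whiskers at percentiles 5 and 95). Dashed lines mark a 2-fold difference. The median of the fibrillar collagen genes was 0.96, but 0.14 with overlapping transcripts summed and -0.97 over the 5 members above 0.5 FPKM in both groups. Those 5 include MSTRG.2334.1, whose locus had a log2 ratio of -0.11 when its overlapping transcripts were summed.

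Collagen genes outside the fibrillar class carried 7 lncRNAs. The 1 at col4a4, described with the basement membrane, was higher, and the other 6 were lower in cold acclimated cells. More than 2-fold lower were 5 of the 6 (83.3%, against 39.4% of all lncRNAs), and the median log2 ratio of the 6 was -1.69. Relative to the median of all lncRNAs it was -1.06. Of the 5, MSTRG.8142.2 at col14a1a and MSTRG.4985.1 at col17a1b passed 0.5 FPKM in control cells only, which fixes the sign of their ratios. The highest was MSTRG.30374.1 at col6a3, which encodes a chain of the beaded filaments of type VI collagen (chromosome 9, 24138061 to 24148510, 2 exons, 3380 nt). It had the highest control mean of all members, 8.02 FPKM, and 2.18 FPKM at 18°C, a log2 ratio of -1.83. It alone made up 26.4% of the members' fragments in control cells. At col7a1, the collagen of the anchoring fibrils of skin, MSTRG.26569.1 (chromosome 6, 40296695 to 40297299) had 4.08 and 1.32 FPKM. At col17a1b, which belongs to a transmembrane collagen of hemidesmosomes, MSTRG.4985.1 had 0.835 and 0.150 FPKM. Their log2 ratios were -1.56 and -1.90. The 3 lncRNAs at col14a1a, a collagen that sits on fibril surfaces, were spread over 94.9 kb of chromosome 16. Their control means were 0.598, 1.67 and 1.43 FPKM and their cold means 0.0825, 1.13 and 0.601 FPKM, so each was lower, by unequal amounts.

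Basement membrane genes gave 3 members that did not share a direction. At lama5, a laminin alpha chain, MSTRG.17323.1 had 0.885 and 0.336 FPKM, and at lamb1a, a laminin beta chain, MSTRG.19705.1 had 0.504 and 0.136 FPKM. Both were more than 2-fold lower (39.4% of all lncRNAs were), with log2 ratios of -1.18 and -1.35. Both passed 0.5 FPKM in control cells only, which fixes the sign of their ratios. At col4a4, a chain of network-forming type IV collagen, MSTRG.7504.1 (chromosome 15, 36093913 to 36094272, 237 nt) had 1.62 FPKM at 28°C and 2.48 FPKM at 18°C, a log2 ratio of 0.59. At frem1b, whose mammalian counterpart helps to join epithelium to the tissue below it, MSTRG.16697.5 held a nearly level mean. It had 5.41 FPKM at 28°C and 5.32 FPKM at 18°C, and with 6 exons it was the most spliced member.

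Proteoglycan genes carried 10 members, of which 8 were lower (80.0%, against 68.0% of all lncRNAs) and 2 higher, with a median log2 ratio of -0.82. Glypicans, heparan sulfate proteoglycans tied to the cell surface that tune growth factor signals, accounted for 7 of them. At gpc4 (chromosome 14, 30806576 to 30809311), MSTRG.6223.1, a single exon of 2736 nt, had 6.69 and 3.60 FPKM. At gpc3 (chromosome 14, 31121880 to 31124838), MSTRG.6212.1, a single exon of 2959 nt, had 2.31 and 1.44 FPKM. Both stayed within 2-fold, with log2 ratios of -0.88 and -0.65. The lncRNAs with no named gene beside them were lower by more. MSTRG.6210.1, 2.97 kb from the lncRNA at gpc4, had 9.81 and 1.28 FPKM. MSTRG.6213.1, 5.75 kb from the lncRNA at gpc3, had 1.16 and 0.274 FPKM.

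The lncRNAs at the glypican 5 paralogs contrasted, but only the short ones, which passed 0.5 FPKM in 1 group only. Passing in 1 group only fixes the sign of a ratio. At gpc5a on chromosome 1, MSTRG.37.1 (2759954 to 2760306, 2 exons, 207 nt) was listed at 0 at 28°C and at 3.18 FPKM at 18°C, the largest log2 ratio of the members. Its short length means that 3.18 FPKM stands for only 0.657 FPM. At gpc5b on chromosome 22, 3 single-exon lncRNAs lay within 10.9 kb. MSTRG.16654.1 (15460305 to 15460504) and MSTRG.16655.1 (15467519 to 15467724) had 0.565 and 0.646 FPKM at 28°C and were listed at 0 at 18°C. They are the shortest members, at 200 and 206 nt, and stood for 0.113 and 0.133 FPM. The longer MSTRG.16653.1, of 1075 nt (15456824 to 15457898), had 0.997 and 0.881 FPKM, nearly level. At gpc6b, MSTRG.30904.1 had 0.919 and 0.300 FPKM, and so also passed 0.5 FPKM in 1 group only.

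The hyaluronan-binding proteoglycans, which swell the matrix with water, had 3 members in differing directions. At vcanb (versican), MSTRG.2255.1 (chromosome 10, 43389371 to 43389592, 222 nt) had 0.0496 and 0.687 FPKM, a log2 ratio of 2.39. This lncRNA passed 0.5 FPKM in cold acclimated cells only, which fixes the sign of its ratio, and stood for 0.152 FPM there. At acanb (aggrecan), MSTRG.19467.1 had 1.71 and 0.968 FPKM, and at ncanb (neurocan), MSTRG.16717.1 had 1.49 and 0.706 FPKM. The last pair were lower but within 2-fold, at log2 ratios of -0.76 and -0.98.

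At ADAM, ADAMTS and ADAMTS-like genes, not all of which encode active proteases, 7 lncRNAs at 7 genes were listed, all with a single exon. More than 2-fold lower were 4 (57.1%, against 39.4% of all lncRNAs), and 2 were more than 2-fold higher (28.6% against 13.3%). The 2 higher ones passed 0.5 FPKM in cold acclimated cells only, and those at adamts3 and adamts9 in control cells only. Passing in 1 group only fixes the sign of the ratio. None of the members was at a gene named mmp or timp. At adamtsl7, an ADAMTS-like gene, MSTRG.424.1 (chromosome 1, 20884697 to 20886197, 1501 nt) had 4.02 and 1.63 FPKM, a log2 ratio of -1.25. At adamts3, which in mammals trims the ends of procollagen, MSTRG.24893.1 had 0.597 and 0.0258 FPKM. At adamts9, which in mammals cuts versican and aggrecan, MSTRG.2842.1 had 0.524 FPKM at 28°C and was listed at 0 at 18°C. Both were low in both groups, at 0.236 and 0.155 FPM in control cells. At adamts13, whose mammalian enzyme cleaves von Willebrand factor, MSTRG.29590.1 (chromosome 8, 45246896 to 45247371) had 0.451 and 1.81 FPKM, a log2 ratio of 1.79. At adam19b, MSTRG.5737.1 had 0.209 and 0.523 FPKM and passed the 2-fold line barely, at 1.01. At adam22, a membrane protein without protease activity in mammals, MSTRG.8844.1 had 1.60 and 0.703 FPKM, and at adamts17, MSTRG.27388.1 had 1.11 and 0.568 FPKM. Both were lower, at log2 ratios of -1.08 and -0.86.

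Of the adhesive glycoproteins, matn3a, a filament-forming protein of cartilage, had MSTRG.14651.1, at 0.694 FPKM at 28°C and listed at 0 at 18°C. At thbs3a, a thrombospondin gene, MSTRG.8832.1 had 1.23 and 0.591 FPKM, a log2 ratio of -0.95. None of the members was at a gene named fn1, tnc, sparc or postn. The pattern also took 3 lncRNAs at genes that share only their first letters with matrix genes. All 3 were lower, as were 68.0% of all lncRNAs. At tnrc6c1, of a family that acts in silencing by small RNAs, MSTRG.20871.1 had 0.821 and 0.0179 FPKM. At tnrc18, MSTRG.21067.1 had 1.28 and 0.348 FPKM, and at loxhd1a, a gene of hearing in mammals, MSTRG.15139.1 had 2.44 and 1.27 FPKM. Those at matn3a, tnrc6c1 and tnrc18 passed 0.5 FPKM in control cells only, which fixes the sign of their ratios. Without the 3 matched by letters, 17 of 39 members were more than 2-fold lower (43.6%, against 39.4% of all lncRNAs). More than 2-fold higher were 9 (23.1% against 13.3%), and the median log2 ratio was -0.95.

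At 5 genes more than 1 member was listed, 14 lncRNAs in all. The log2 ratios had the same sign in 11 of their 14 pairs (78.6%), and the 3 pairs of opposite sign were all at col2a1b. For the 528 other named genes with several lncRNAs, the sign was shared in 1251 of 1931 pairs (64.8%). Transcripts of a gene share a locus and sometimes reads, so these pairs are not independent.

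**Figure D4:**
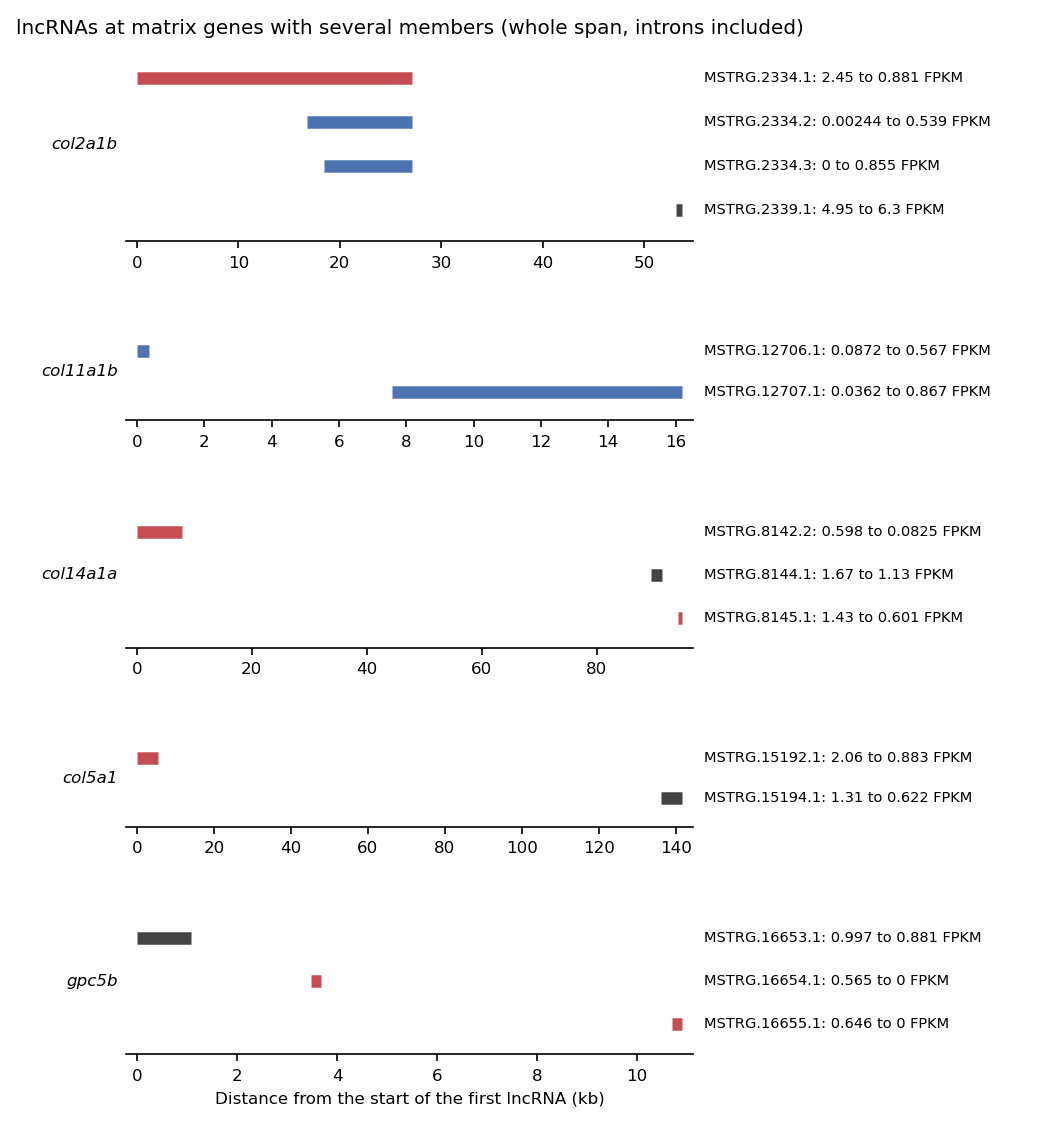
Spans of the lncRNAs at the 5 genes with several members, from start to end with introns included, as distance in kb from the start of the first (x axis), with the control and cold acclimated mean FPKM printed beside each. Red marks more than 2-fold lower, blue more than 2-fold higher and dark grey within 2-fold, and only col2a1b combines red and blue, at transcripts that overlap.

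The members were also divided by their structure. The 27 with a single exon had a median log2 ratio of -1.08, with 14 more than 2-fold lower and 4 higher. The 15 with 2 or more exons had a median of -0.06, with 5 more than 2-fold lower and 5 higher. Among the other lncRNAs with a named gene, including those of 0.5 FPKM or less in both groups, the medians were -0.80 and -0.24. Above 0.5 FPKM in either group were 1817 of them with a single exon, 801 more than 2-fold lower and 242 higher. With 2 or more exons there were 1243, 330 lower and 184 higher by as much. All 9 members more than 2-fold higher passed 0.5 FPKM in cold acclimated cells only, which fixes the sign of their ratios. The 5 with 2 or more exons include MSTRG.2334.2 and MSTRG.2334.3, which overlap at a locus with a log2 ratio of -0.11 when summed. By length, the 8 members of 1000 nt or more were all lower, with a median of -0.92 and 3 past 2-fold (37.5%). Of the 822 other lncRNAs of that length with a named gene, 609 were lower (74.1%). Above 0.5 FPKM in either group were 818 of them, and 296 of these 818 were more than 2-fold lower. The 9 members shorter than 300 nt ran from the largest ratio to some of the lowest, with 4 more than 2-fold higher and 4 more than 2-fold lower. Of the 751 others of that length above 0.5 FPKM in either group, 176 were more than 2-fold higher and 288 more than 2-fold lower. The short members past 2-fold all exceeded 0.5 FPKM in 1 group only, which fixes the sign of their ratios.

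Genes that work with the matrix but fall outside the name pattern were followed for comparison. At integrin genes, the receptors for matrix proteins, and the integrin-like itgbl1, 15 lncRNAs were listed. More than 2-fold higher were 5 (33.3%, against 13.3% of all lncRNAs), and 4 were more than 2-fold lower (26.7% against 39.4%). Of the 15, 8 were transcripts of a single itgav locus, with 4 higher, 2 lower and 2 within 2-fold. The 8 at itgav summed to 40.1 FPKM at 28°C and 43.9 FPKM at 18°C, so the locus as a whole was level. At serpinh1b, the chaperone that helps procollagen to fold, MSTRG.7357.1 had 18.5 and 4.76 FPKM, a log2 ratio of -1.93. At tgfbr3, a co-receptor for TGF-beta, each of 4 lncRNAs was more than 2-fold lower (39.4% of all lncRNAs were), with log2 ratios from -2.81 to -2.26.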

How the data were processed

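Total RNA of 6 ZF4 cultures was sequenced after removal of ribosomal RNA. The authors aligned the reads with HISAT2 2.1.0 to GRCz10, assembled and merged transcripts with StringTie 1.3.3, filtered them by class, length and coding potential, and kept those above 0.5 FPKM in at least 1 sample. The deposited FPKM values are group means, without replicate values. The deposited log2 fold change, p-value and FDR of each transcript are the authors' own comparison and were not used. The deposited exon numbers and lengths (other values) were used as listed, with positions counted from 1.

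The comparison between the groups was made on the means, as log2 ratios with 0.1 FPKM added to each mean, for lncRNAs that exceeded 0.5 FPKM in either group, with a 2-fold threshold and no test. The calculation of ratios was run on simulated data without noise, which checks the code only and not the measured values. All 33 gene names were in the RefSeq gene table of GRCz12tu, each on the listed chromosome. The members, the role groups and the gene lists were chosen with earlier results of these data known. The lncRNAs named were those with the highest means, the largest ratios in each direction, a mean listed at 0, or a gene with several members, and the extremes of each role group. Lower-ranked members were added to account for all 42. No sequence is shown, since a GRCz10 genome was not used here. Calculations ran in Python 3.11.15 (pandas 2.3.3, numpy 2.4.6, scipy 1.17.1), and plots were drawn in matplotlib 3.10.9.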

Additional observations from a re-analysis of the deposited data

How the results depend on the processing

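All values rest on 1 mean per group. No paired analysis was possible because the table holds no values per culture, and leaving out replicates was not run for the same reason. With a pseudocount of 1 FPKM, 1 member was more than 2-fold higher (2.38%, against 3.90% of all lncRNAs) and 2 were more than 2-fold lower (4.76% against 7.99%), both shares then below those of all lncRNAs, with a median log2 ratio of -0.50, and 19 members were under 1 FPKM in both groups. With 0.01 FPKM, 9 were more than 2-fold higher (21.4%, against 14.3% of all lncRNAs) and 22 were lower by as much (52.4% against 41.9%). The sign of a ratio cannot change with the pseudocount. With a filter at 1 FPKM, 23 members were left, 2 higher (8.70%, against 11.4% of all lncRNAs) and 8 lower (34.8% against 34.5%), so the larger shares among the members were not seen. Scaling all lncRNAs to a median log2 ratio of 0 gave the members a median of -0.32. More than 2-fold higher were then 10 (23.8%, against 23.5% of all lncRNAs), and 9 were more than 2-fold lower (21.4% against 23.9%). Lower at all on this scale were 27 members (64.3%), against 48.0% of the other lncRNAs with a named gene. The share of all lncRNAs was 50.0%, as the scaling sets it. The sign was kept by 38 members. At a 4-fold threshold, 5 members were higher (11.9%, against 6.02% of all lncRNAs) and 6 lower (14.3% against 16.6%). Among single-exon transcripts, 4 of 27 members were more than 2-fold higher (14.8%, against 12.9% of all such lncRNAs) and 14 lower (51.9% against 43.8%). A limit of 300 nt or longer was chosen after seeing the data. It left 33 members, 5 higher (15.2% against 10.6%) and 15 lower (45.5% against 38.8%). The other alternatives were no filter, 1 transcript per locus, overlapping transcripts summed, genes matched by letters left out, and case of the name ignored. They gave 7 to 11 higher, 17 to 21 lower and medians from -0.97 to -0.95. The shares were 17.5% to 23.4% higher, against 12.6% to 14.6% of all lncRNAs, and 43.6% to 47.5% lower, against 38.8% to 39.7%. The medians of the 4 role groups with 6 or more members kept their sign under the scaling and the length limit. Pseudocounts cannot change these signs, and the scaling could only raise the median of the fibrillar collagens. That median was 0.41 with a pseudocount of 1 FPKM and 0.34 at 300 nt or longer. It was 0.14 with overlapping transcripts summed, and -0.97 over the 5 members above 0.5 FPKM in both groups. Those 5 include MSTRG.2334.1, whose locus had a log2 ratio of -0.11 when its overlapping transcripts were summed. Members of low FPKM and short length rest on few fragments, and the values do not give the depth of each library.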

Other observations

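The name pattern was in lower case, and 5 further lncRNAs are listed at matrix genes spelled in capitals. They were found after the values were seen. At SPOCK1, a proteoglycan gene of the SPARC family, MSTRG.5621.2 (chromosome 14, 1712202 to 1786206, 3 exons, 3257 nt) had 16.3 FPKM at 28°C and 17.3 FPKM at 18°C, above every one of the 42 members in both groups. At ADAMTS7, MSTRG.28287.1 had 0.456 and 3.52 FPKM, and at COL18A1, a basement membrane collagen, MSTRG.26102.1 had 0.574 and 2.12 FPKM, with log2 ratios of 2.70 and 1.72. At LTBP4, which binds latent TGF-beta to elastic fibres in mammals, MSTRG.11146.1 had 1.16 and 0.335 FPKM, and at COL26A1, MSTRG.1966.1 had 0.798 and 0.242 FPKM, with log2 ratios of -1.53 and -1.39.

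Beyond the pairs of members described above, 5 lncRNAs that are no members lay within 10 kb of a member. More than 2-fold lower in cold acclimated cells were 3 of these, against 39.4% of all lncRNAs. Of these 3, MSTRG.15190.1 lay 3.45 kb from MSTRG.15192.1 at col5a1 and had 1.84 FPKM at 28°C and 0.441 FPKM at 18°C. MSTRG.8833.1, 0.407 kb from the lncRNA at thbs3a, had 0.910 and 0.993 FPKM, while the lncRNA at thbs3a had 1.23 and 0.591 FPKM.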
